A study of Homo sapiens with 18 samples.

Results

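Mature miRNAs were profiled by small-RNAseq in wild-type HCT116 cells, a human colorectal carcinoma line of epithelial type, and 539 of the 2167 mature miRNAs listed were compared between 2 cell densities. The libraries came from whole cell RNA of cells grown for 3 days, to 50% confluency, or for 5 days, to 250% confluency, with 3 libraries per day. A miRNA was kept when its deposited log2 value was at least log2 of 10 in at least 3 of the 6 libraries, and the 539 that met this held 99.9% of the summed miRNA level. Both days shared the genotype, the cell line, the medium and the library kit, and no agent was added on either day. Days in culture and confluency changed together, so crowding and time in culture cannot be told apart. The labels number the libraries of a day as biological replicates 1 to 3 without saying which cultures they came from, so the p-values measure the spread between these libraries.

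A miRNA is cut from a hairpin precursor, and a short strand from the 5′ arm (5p) or the 3′ arm (3p) is loaded into an Argonaute protein. The loaded strand pairs with messenger RNAs mainly through its seed, the stretch near its 5′ end, and lowers their translation and stability. miRNAs with the same seed form a family, miRNAs cut from one transcript form a cluster, and many hairpins lie within introns or exons of longer host genes. In colorectal epithelium, the miR-200 family is known for keeping the epithelial state and miR-210 for its induction under low oxygen.

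The mature sequences of the miRNAs with the largest changes come first, since the seed decides which messages each one can bind. Bases 2 to 8, the seed, are in capitals, and sequences and positions are those of RefSeq on GRCh38.p14. The rises on day 5 were led by both arms of miR-210, and 9 of the 10 largest had a sequence in the table used here:
miR-210-5p: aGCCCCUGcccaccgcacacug
miR-210-3p: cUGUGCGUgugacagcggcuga
miR-1910-5p: cCAGUCCUgugccugccgccu
miR-3158-3p: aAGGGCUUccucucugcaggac
miR-3155a: cCAGGCUCugcagugggaacu
miR-1275: gUGGGGGAgaggcuguc
miR-3605-3p: cCUCCGUGuuaccuguccucuag
miR-411-5p: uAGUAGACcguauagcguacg
miR-6511b-3p: cCUCACCAccccuucugccugca

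The falls on day 5 were led by miRNAs of high G and C content:
miR-6743-5p: aAGGGGCAgggacggguggccc
miR-10396b-3p: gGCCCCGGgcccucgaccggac
miR-4632-3p: uGCCGCCCucucgcugcucuag
miR-4787-5p: gCGGGGGUggcggcggcauccc
miR-6089: gGAGGCCGggguggggcggggcgg
miR-4634: cGGCGCGAccggcccgggg
miR-4485-3p: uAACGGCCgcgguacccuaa
miR-7704: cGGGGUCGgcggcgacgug

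No pair within either group shared a seed. For miR-30b-3p, miR-3195 and miR-3960, which also belong among the largest changes, the table used here gave no mature sequence.

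Most of the 539 miRNAs changed little between the days on the deposited scale. Their median log2 fold change, day 5 over day 3, was 0.07 with quartiles of -0.11 and 0.23, and 470 of them (87.2%) moved by less than 0.5 on the log2 scale. A normalization between libraries is named for these values, so a change shared by most miRNAs may not show in them. With 3 libraries per day, the 95% confidence interval of a miRNA reached 0.29 to either side of its fold change in the median. With an adjusted p-value under 0.05 from limma as the criterion, 80 miRNAs were called, 14.8% of those tested. Of these, 46 were higher on day 5 (8.53% of the tested miRNAs) and 34 were lower (6.31%). The libraries of the 2 days did not overlap for 183 of the 539 (34%), among them all 80 called. The scale between libraries moved the split. Higher miRNAs made up 57.5% of the calls on the deposited scale, 71.6% when the medians of the libraries were made equal (121 higher, 48 lower) and 40.6% after a correction for G and C content (43 higher, 63 lower). Single libraries moved the split and the count as well. Higher miRNAs made up 45.1% of the calls without day 3 replicate 3 and 43.2%, 39.0% and 43.2% without day 5 replicates 1, 2 and 3. The number of calls was 122 without day 3 replicate 3, 45 and 48 without day 3 replicates 1 and 2, and 37, 41 and 37 without day 5 replicates 1, 2 and 3.

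Rises and falls differed in size. Of the 46 miRNAs that were higher, 28 rose by less than 1.5-fold and 2 by more than 2-fold, the latter being both arms of miR-210. Of the 34 that were lower, 12 fell by more than 2-fold, and all 12 carry a number of 3000 or above, that is, they were named late in the numbering of miRNAs. Among these 12, miR-3195, miR-6743-5p, miR-10396b-3p and miR-4739 passed the filter in day 3 libraries alone. These had to differ between the days, so their falls carry no weight of their own in this contrast. Among the 431 earlier-named miRNAs, 33 rose and 17 fell, with no fall beyond 2-fold, and among the 108 late-named, 13 rose and 17 fell. The miRNAs of at least 10000 CPM (the level per 1000000 of the summed miRNA level of a library) had a median change of 0.13 in either direction, as did those from 1000 to 10000 CPM, against 0.26 below 10 CPM. The share called did not follow the level. It was 15.3% below 10 CPM, 16.3% from 10 to 100 CPM, 11.6% from 100 to 1000 CPM, 18.5% from 1000 to 10000 CPM and 4.76% (1 of 21) above.

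**Figure D1:**
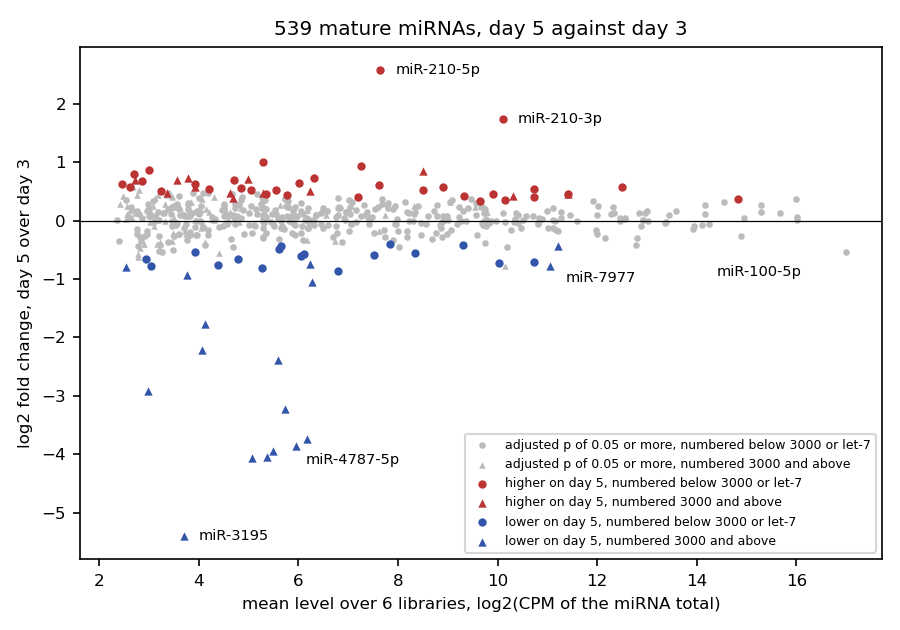
Mean level of each of the 539 miRNAs over the 6 libraries (horizontal axis, log2 of CPM) against its log2 fold change, day 5 over day 3 (vertical axis). Red marks are called higher and blue marks lower at an adjusted p-value under 0.05, and triangles are miRNAs numbered 3000 and above; the 12 miRNAs below -1 are all blue triangles, and both arms of miR-210 stand alone above 1.

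Before the single miRNAs, the libraries themselves were compared. The summed back-transformed values of the 6 libraries lay between 1542087 and 1947371, and the lowest was day 3 replicate 3. Over the tested miRNAs this library stood below the mean of its day by 0.15 on the log2 scale in the median, while the other 5 lay within 0.10 of theirs, so calls of named miRNAs that change without it are given. All 6 markers of intestinal epithelium were tested, led by miR-141-3p at 5673 CPM and miR-200c-3p at 3958 CPM on day 3. The rest were lower, with miR-200b-3p at 1301 CPM, miR-192-5p at 678 CPM, miR-194-5p at 62.4 CPM and miR-215-5p at 5.86 CPM on day 3. Of the 6, miR-200b-3p alone was called, and it was lower on day 5. The defining miRNAs of muscle (miR-133a-3p), liver (miR-122-5p) and neurons (miR-124-3p) were at 0.165, 0.197 and 0.137 CPM on day 3. The 5 markers of blood cells summed to 12.7 CPM on day 3 and 11.4 CPM on day 5. miR-9-5p, which is also known from neurons, stood at 1449 CPM, and miR-143-3p and miR-145-5p, known from mesenchyme, at 172 and 166 CPM, while the mesenchymal miR-199a-5p and miR-214-3p were both below 1 CPM. The endothelial miR-126-3p was at 520 CPM on day 3 and 428 CPM on day 5. Of these markers, miR-9-5p, miR-143-3p, miR-145-5p, miR-126-3p and the blood miR-142-3p were tested, and none was called. Among the other arms of their hairpins, miR-9-3p and miR-145-3p were called lower, at -0.58 and -0.44. miR-126-5p, at 3079 CPM over the 6 libraries, and miR-142-5p were not called. The part of these miRNAs in the results was not tested.

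miR-210 is known as a target of the hypoxia-inducible factors, and both of its arms rose more than any other miRNA. The hairpin is intronic to MIR210HG, a long noncoding RNA, with the 3p strand at chr11:568112-568133 and the 5p strand at chr11:568150-568171, both on the minus strand. The log2 values of miR-210-5p were 6.70, 6.69 and 6.64 in the 3 day 3 libraries and 9.11, 9.34 and 9.32 in the 3 day 5 libraries. Its log2 fold change was 2.58 (standard error 0.11), or 5.97-fold, with an adjusted p of 1.29e-06 (limma). The log2 values of miR-210-3p were 10.05, 10.08 and 9.34 on day 3 and 11.48, 11.71 and 11.51 on day 5. Its log2 fold change was 1.74 (standard error 0.20), or 3.34-fold, with an adjusted p of 0.000711 (limma), and the low value of day 3 replicate 3 gave most of its spread. The days did not overlap for either arm. The 3p arm remained the more abundant, at 1697 CPM against 342 CPM for the 5p arm on day 5. Together the arms went from 573 ± 76.2 CPM (SD, n = 3 libraries) on day 3 to 2039 ± 68.1 CPM (SD, n = 3) on day 5.

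The 8 next-largest rises among called miRNAs of at least 10 CPM were between 1.63- and 2.00-fold, and none of their libraries overlapped between the days. miR-30b-3p, the minor arm of a hairpin whose major arm is a widely expressed miRNA, had log2 values of 5.38, 5.62 and 5.59 on day 3 and of 6.41, 6.66 and 6.51 on day 5. Its log2 fold change was 1.00 (standard error 0.12, adjusted p = 0.000916, limma). The major arm, miR-30b-5p, stood at 0.45 (adjusted p = 0.0857, limma). It was called with library totals as the scale and with the medians made equal (adjusted p = 0.0101 for both, limma), and in no fit that left out 1 library. The difference between the arms was not called (adjusted p = 0.0806, limma). miR-1910-5p, from an intron of C16orf74 at chr16:85741669-85741689 on the minus strand, had log2 values of 7.53, 7.38 and 7.73 on day 3 and of 8.38, 8.60 and 8.47 on day 5. It rose by 0.94 (standard error 0.12, adjusted p = 0.00157, limma), while the other arm of its hairpin, miR-1910-3p, stood at 0.11 (adjusted p = 0.503, limma). miR-3158-3p had log2 values of 8.97, 8.80 and 8.80 on day 3 and of 9.61, 9.83 and 9.68 on day 5, a rise of 0.85 (standard error 0.11, adjusted p = 0.00142, limma). It can come from either of 2 hairpins that face each other on opposite strands of an intron of DPCD, at chr10:101601466-101601487 on the plus strand and chr10:101601427-101601448 on the minus strand, which share these values.

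miR-3605-3p, from an intron of PHC2, a polycomb subunit, at chr1:33332405-33332427 on the minus strand, went from 5.55, 5.40 and 5.33 to 6.11, 6.14 and 6.15 on the log2 scale. Its rise was 0.71 (standard error 0.10, adjusted p = 0.00281, limma). miR-411-5p, of the imprinted cluster on the long arm of chromosome 14 (chr14:101023340-101023360, plus strand, an intron of MEG8), rose by 0.70 (standard error 0.13, adjusted p = 0.00872, limma). Both arms of miR-210 and these 5 miRNAs were called in each of the 6 fits that left out 1 library. The 3 weakest of the 10 were less firm. miR-1275 rose by 0.73 (adjusted p = 0.0103, limma), with an adjusted p of 0.0525 without day 5 replicate 2, and its short sequence matches the genome exactly at 10 places. miR-3155a, from an intron of PFKFB3, which makes a regulator of glycolysis, rose by 0.74 (adjusted p = 0.0163, limma), and its adjusted p was 0.051 without day 3 replicate 1, 0.067 without day 5 replicate 2 and 0.0608 without day 5 replicate 3. miR-6511b-3p, which lies in introns of PKD1 and of a PKD1 pseudogene, rose by 0.70 (adjusted p = 0.0288, limma), with adjusted p-values of 0.072, 0.107 and 0.0667 without day 5 replicates 1, 2 and 3.

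**Figure D2:**
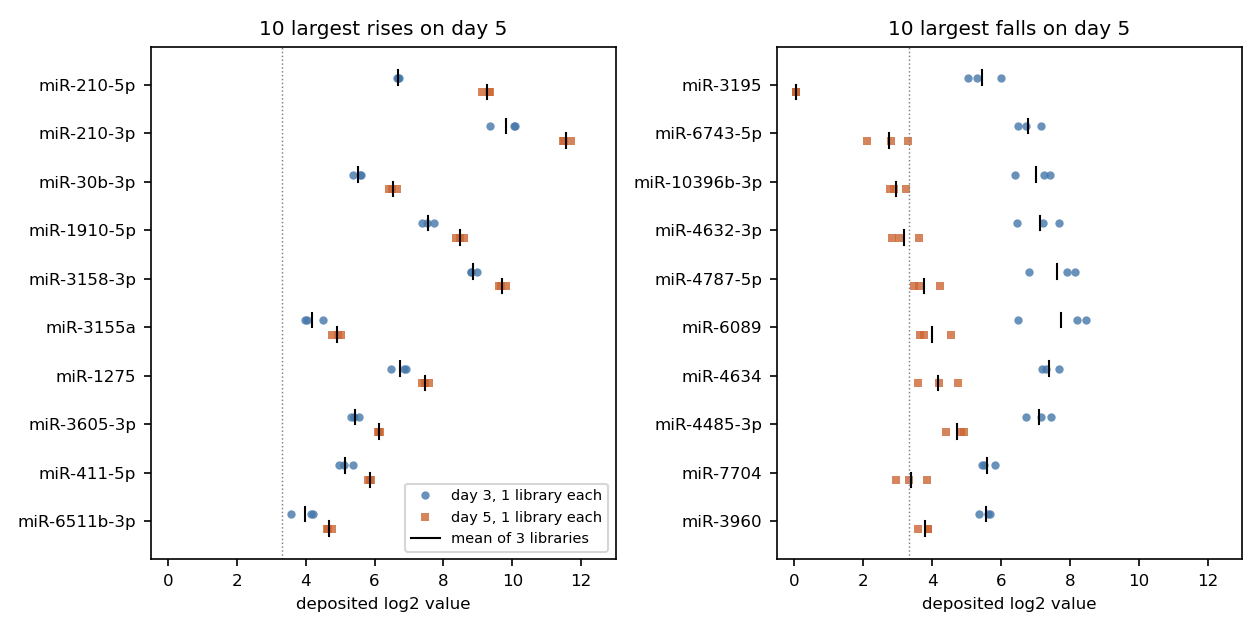
Deposited log2 values (horizontal axis) of the 10 miRNAs with the largest rise (left) and the 10 with the largest fall (right) among called miRNAs of at least 10 CPM. Blue circles are day 3 libraries, orange squares day 5 libraries, black bars the mean of 3, and the dotted line is the filter at log2 of 10; no miRNA shown overlaps between the days, and the day 5 mean of each fall except miR-4485-3p lies less than 1 log2 unit above the dotted line or below it.

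The 10 largest falls were larger than any rise outside miR-210, and they came from low to moderate levels. miR-3195 had log2 values of 6.01, 5.31 and 5.05 on day 3 and of 0.06, 0.06 and 0.05 on day 5. The day 5 values are nearly equal and close to 0 on the log2 scale, so the fall of 5.40 (standard error 0.22, adjusted p = 1.29e-06, limma) depends on how the deposited scale treats the lowest levels. miR-6743-5p, whose sequence lies in coding sequence of RIC8A (chr11:209341-209362, plus strand), had log2 values of 7.17, 6.72 and 6.51 on day 3 and of 2.81, 2.13 and 3.29 on day 5. It fell by 4.06 (standard error 0.29, adjusted p = 4.99e-05, limma). miR-10396b-3p had log2 values of 7.25, 6.40 and 7.41 on day 3 and of 2.89, 2.78 and 3.24 on day 5, a fall of 4.05 (standard error 0.25, adjusted p = 2.65e-05, limma). These 3, with miR-4739 and miR-3074-3p, passed the filter in day 3 libraries and in no day 5 library. miRNAs that pass in this way had to differ between the days, and all 5 were called lower. miR-1185-1-3p and miR-2277-3p passed in day 5 libraries alone, and both were called higher.

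miR-4632-3p, from an intron of TNFRSF1B at chr1:12191752-12191773 on the plus strand, had log2 values of 7.69, 6.45 and 7.23 on day 3 and of 3.05, 2.84 and 3.63 on day 5. It fell by 3.95 (standard error 0.31, adjusted p = 7.15e-05, limma). miR-4787-5p, which lies in the untranslated part of DOCK3 transcripts at chr3:50675093-50675114 on the plus strand, went from 8.14, 7.91 and 6.80 to 3.61, 3.46 and 4.23, a fall of 3.85 (standard error 0.34, adjusted p = 0.000128, limma). miR-6089, which is annotated at the same position of the X and the Y chromosome, had the widest spread of the group on day 3, with log2 values of 8.48, 8.22 and 6.50, against 3.65, 3.76 and 4.56 on day 5. Its fall was 3.74 (standard error 0.48, adjusted p = 0.00139, limma). In each of these 3, day 3 and day 5 were separated by a gap of more than 1 log2 unit.

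miR-4634 fell by 3.22 (adjusted p = 0.000107, limma), from 7.69, 7.19 and 7.30 to 4.19, 3.58 and 4.75. miR-4485-3p fell by 2.39 (adjusted p = 0.000128, limma), from 7.47, 6.72 and 7.17 to 4.85, 4.39 and 4.93. Its sequence matches the genome exactly at 4 places, one of them inside the mitochondrial 16S ribosomal RNA gene MT-RNR2 on the same strand, so reads of that abundant RNA cannot be told apart from it. None of the other named falls with a sequence matched an annotated ribosomal RNA gene. miR-10396b-3p matches at 6 places, of which 3 lie on the short arm of chromosome 21 and the others on unplaced or unlocalized sequence. Matches of miR-1275, one of the rises, lie on these same sequences too. Only annotated ribosomal RNA genes were searched, so an origin from ribosomal sequence outside them was not tested for any of these miRNAs. miR-7704, inside coding sequence of HOXD1 (chr2:176188843-176188861, plus strand), fell by 2.21 (adjusted p = 0.000279, limma), and miR-3960 fell by 1.78 (adjusted p = 6.31e-05, limma). Leaving out any 1 library ended none of these 10 calls.

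The 12 miRNAs that fell by more than 2-fold, which are these 10 with miR-4739 and miR-4456, were spread more widely between replicates than the rest. Their SD over the day 3 libraries was 0.47 in the median, against 0.18 for all tested miRNAs. Summed, they stood at 1042, 745 and 768 CPM in the 3 day 3 libraries and at 132, 108 and 130.0 CPM in the 3 day 5 libraries. As they were chosen for their fall, the ratio of the means, 6.91, is a description. All of them together made up less of the miRNA level on day 3 than miR-200b-3p alone, which was at 1301 CPM.

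The rises and the largest falls lay at high G and C content, while the smaller falls were spread over all contents. Among the 464 tested miRNAs with a sequence, the median G and C content was 50.0%, while the 8 falls of the top 10 with a sequence lay between 60.0% and 94.7% and the 9 rises between 47.6% and 72.7%. The 55 miRNAs above 65% held 15 that rose and 9 that fell, 8 of these by more than 2-fold, with a median log2 fold change of 0.22. Of these falls, miR-6743-5p, miR-10396b-3p and miR-4739 passed the filter in day 3 libraries alone. They had to differ between the days and carry no weight here, also where they are among the 8 falls of the top 10. The 60 miRNAs at or below 35% held 1 that rose and 4 that fell, with a median of 0.01. From 35% to 45%, 45% to 55% and 55% to 65%, 5 of 106, 7 of 148 and 6 of 95 fell and 2, 6 and 17 rose, with medians of 0.01, 0.06 and 0.10. The part of base composition in these results was not tested beyond the correction given above, after which the median over all miRNAs with a sequence was -0.01. The correction took the rise of miR-4787-3p, one of the miRNAs richest in G and C, from 0.48 to 0.18 (adjusted p = 0.111, limma).

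The 10 most abundant miRNAs made up 55.7% of the summed level on day 3 and 54.5% on day 5. Their log2 fold changes lay between -0.53 and 0.38, and 1 of the 10 was called. This was miR-92b-3p, a seed relative of miR-92a, with log2 values of 15.48, 15.45 and 15.44 on day 3 and of 15.72, 15.93 and 15.85 on day 5. It rose by 0.38 (standard error 0.10, adjusted p = 0.0418, limma), and the call was lost in every fit that left out 1 library other than day 3 replicate 3 (adjusted p from 0.072 to 0.163). miR-100-5p, the most abundant miRNA, was at 154134 CPM on day 3 and 106115 CPM on day 5. Its log2 fold change of -0.53 (standard error 0.16) missed the threshold at an adjusted p of 0.0548 (limma) and passed it without day 3 replicate 3, at -0.69 (adjusted p = 0.00359, limma). miR-100-5p was also called with library totals (adjusted p = 0.00782, limma), with median centring (0.0177) and with the stricter filter (0.0225). The correction for G and C content (0.0103) and all 9 libraries in one fit (0.0243) called it too. Of the alternatives, 8 called it and 9 did not. miR-21-5p, a miRNA abundant in many carcinomas, stood at 0.38 (standard error 0.12, adjusted p = 0.0734, limma), and the days did not overlap for it. It was called with library totals (adjusted p = 0.00988, limma), with median centring (0.00484), with the stricter filter (0.0374) and after the correction for G and C content (0.00779), and in none of the 6 fits that left out 1 library. For miR-92a-3p, miR-191-5p, miR-10a-5p, miR-22-3p, let-7a-5p, miR-26a-5p and miR-99b-5p the adjusted p was between 0.202 and 0.979 (limma). For miR-191-5p the 95% confidence interval ran from -0.29 to 0.31.

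Families and clusters of known miRNAs were read as 31 lists with 256 members, of which 187 were tested. Of these, 15 were called (8.02%, beside 14.8% of all tested miRNAs), 7 higher and 8 lower, and 18 lists held no call. The median log2 fold change of the 187 was 0.01. In the miR-17-92 cluster, a proliferation-linked polycistron, 0 of 11 tested members were called and the fold changes lay between -0.41 and 0.35. In its paralog, the miR-106b-25 cluster, 0 of 6 were called, between -0.34 and 0.07. The miR-15/16 family, known to restrain the cell cycle, had 0 of 9 called, the miR-29 family 0 of 5, the miR-181 family 0 of 8 and the family of miR-130, miR-301 and miR-454 0 of 9. In each of these 6 lists the median lay between -0.05 and 0.04. On the median-centred scale 52 members of the 31 lists were called, and 8 without the filter on low values. Among miRNAs the paper names, miR-181a-5p, miR-28-5p and miR-27a-3p stood at 0.14, 0.37 and -0.04 (adjusted p = 0.434, 0.103 and 0.849, limma). Median centring called miR-181a-5p and miR-28-5p (adjusted p = 0.0430 and 0.00768, limma). Library totals called miR-28-5p as well (adjusted p = 0.00956, limma), and no fit that left out 1 library called any of these miRNAs.

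Within the epithelial miRNAs, 1 member of the miR-200 family changed. miR-200b-3p, at chr1:1167160-1167181 on the plus strand, had log2 values of 11.26, 11.35 and 10.91 on day 3 and of 10.44, 10.50 and 10.42 on day 5, with no overlap. Its fold change was -0.72 (standard error 0.13, adjusted p = 0.0097, limma), and it was called in each fit that left out 1 library. The other 8 tested members of the family were not called. They included miR-200c-3p at 0.11 (adjusted p = 0.654, limma) and miR-429 at -0.16 (adjusted p = 0.479, limma), which carry the same seed and whose confidence intervals ran from -0.19 to 0.41 and from -0.48 to 0.16. The 2 sequences that carry this seed and differ in their call are near to each other:
miR-200b-3p: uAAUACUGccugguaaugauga
miR-200c-3p: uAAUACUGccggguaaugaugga

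The 3 miRNAs with this seed summed to 0.769% of the miRNA level on day 3 and 0.718% on day 5. A similar pattern of values was seen in the miR-183 cluster, which is cut from one transcript and is known from sensory epithelia and carcinomas. miR-96-5p was at 11.94, 12.06 and 11.60 on day 3 and at 11.08, 11.25 and 11.15 on day 5, a fall of 0.71 (standard error 0.14, adjusted p = 0.0115, limma) that was lost without day 5 replicate 1 (adjusted p = 0.0566, limma). miR-182-5p and miR-183-5p of the same cluster stood at 0.11 and -0.16 (adjusted p = 0.626 and 0.499, limma).

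In the miR-99/100 family, whose seed is shared by miR-99a-5p, miR-99b-5p and miR-100-5p, all 3 fold changes were negative. miR-99a-5p, at chr21:16539101-16539122 in an intron of MIR99AHG, was called at -0.60 (adjusted p = 0.0395, limma), a call lost in every fit that left out 1 library other than day 3 replicate 3 (adjusted p from 0.072 to 0.132), and miR-99b-5p stood at -0.26 (adjusted p = 0.234, limma). Without day 3 replicate 3, miR-99b-5p was called at -0.38 (adjusted p = 0.0357, limma), and its adjusted p was 0.0329 with library totals and 0.0281 after the correction for G and C content. The summed level of the 3 went from 18.7% to 13.4% of all miRNAs. The sequences show how near the 3 are to each other:
miR-99a-5p: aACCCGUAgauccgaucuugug
miR-100-5p: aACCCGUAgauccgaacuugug
miR-99b-5p: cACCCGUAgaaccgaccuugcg

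In the miR-30 family 2 of 10 tested members rose, both of them 3p strands. Beside miR-30b-3p these were the 9.36, 9.47 and 9.44 of miR-30d-3p on day 3, which became 9.91, 10.07 and 10.02 on day 5, a rise of 0.58 (standard error 0.10, adjusted p = 0.00806, limma). In the let-7 family, known for restraining growth genes, 1 of 19 tested members was called. This was let-7d-3p, the strand that carries no let-7 seed, with a rise of 0.46 (adjusted p = 0.0193, limma). The abundant let-7a-5p stood at 0.27 (adjusted p = 0.202, limma). It was called with library totals (adjusted p = 0.0222, limma), with median centring (0.0154) and after the correction for G and C content (0.0297), and in no fit that left out 1 library. The other called members of the lists were miR-221-5p, miR-26a-1-3p, miR-374a-3p, miR-502-3p and miR-1226-3p, which fell by 0.85, 0.54, 0.42, 0.40 and 0.66, and miR-23a-5p and miR-193b-3p, which rose by 0.52 and 0.43 (limma, adjusted p between 0.00109 and 0.0447). Of these 7, miR-221-5p and miR-1226-3p, a mirtron from an intron of DHX30, were called in every fit that left out 1 library. The other 5, and let-7d-3p, lost their call in 4 or 5 of those 6 fits, with adjusted p-values up to 0.196, and kept it without day 3 replicate 3.

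**Figure D3:**
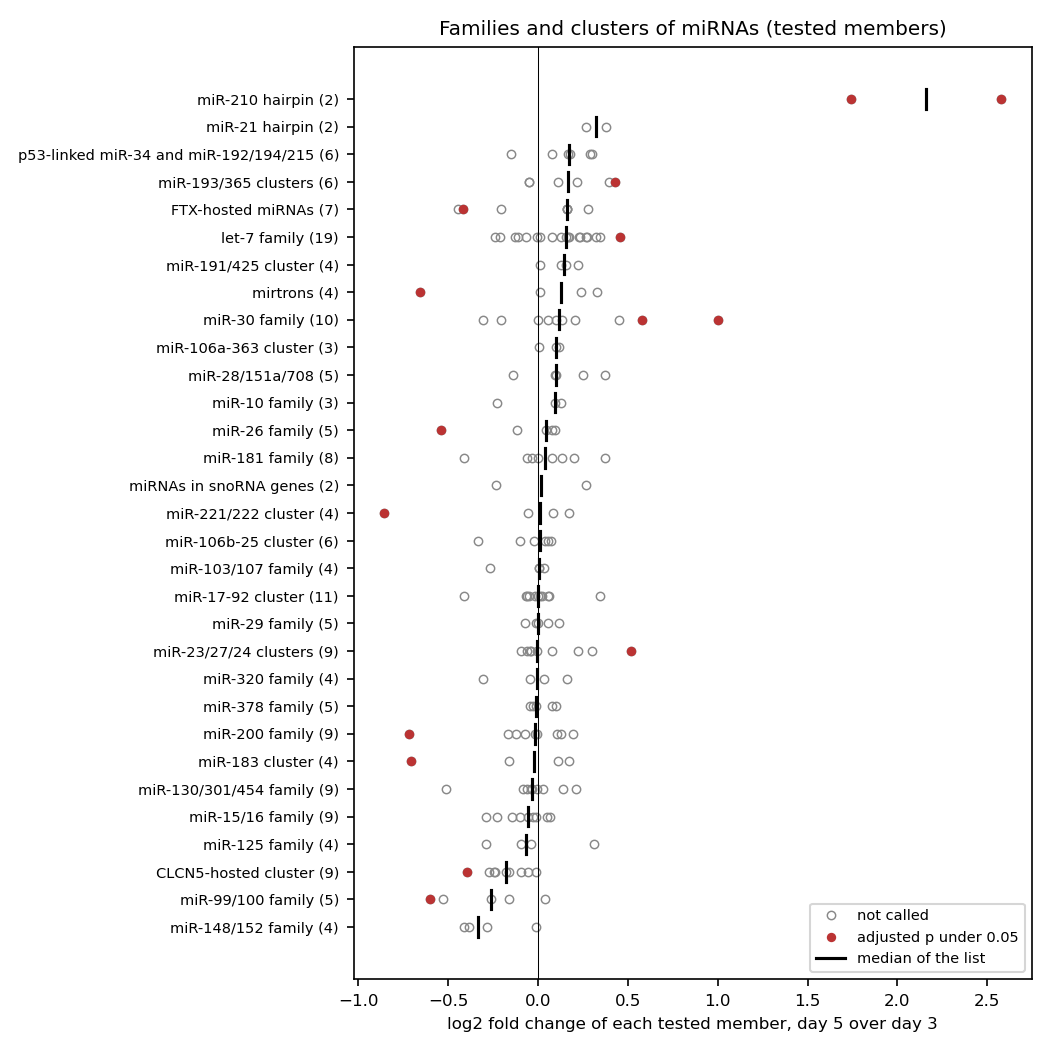
Log2 fold change, day 5 over day 3, of each tested member of the 31 lists (horizontal axis), ordered by the median of the list, with the number of tested members in brackets. Filled red points have an adjusted p-value under 0.05, open points do not, and black bars are medians; apart from miR-210, the medians lie between -0.33 and 0.32.

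Most called miRNAs, like most tested ones, shared their seed with no other tested miRNA. Of the 72 called miRNAs with a sequence, 61 were alone with their seed among the tested miRNAs and 11 shared it, in 10 seed groups. The share alone with their seed was 84.7% of these 72 and 71.8% of all 464 tested miRNAs with a sequence. In 1 of the 10 groups, that of miR-423-5p and miR-3184-5p (seed GAGGGGC), every tested member was called, but their hairpins lie on opposite strands of one locus. In the group of miR-92b-3p (seed AUUGCAC) 1 of 5 members was called, and the other 4 stood between -0.18 and 0.06. In the group of miR-96-5p (seed UUGGCAC), miR-1271-5p stood at -0.54 (adjusted p = 0.0736, limma), and the 2 together went from 0.212% to 0.129% of the miRNA level.

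Both arms were tested for 132 hairpins. For 84 of these the fold changes of the 5p and the 3p arm had the same sign, and across hairpins they correlated with a Pearson coefficient of 0.32 and a Spearman coefficient of 0.41, which is a description, since arms share libraries and base composition. In 8 hairpins both arms were called, in 6 of them in the same direction (miR-210, miR-423, miR-625, miR-197, miR-2277 and miR-3184, each higher). Of these, miR-423 and miR-3184 lie on opposite strands of one locus, and miR-3184-3p has the values of miR-423-5p, so they are not separate cases. miR-2277-3p passed the filter in day 5 libraries alone, so it had to differ between the days. In the other 2, miR-4787 and miR-212, the arms moved apart. The call of miR-4787-3p was lost without day 3 replicate 1 and without each day 5 replicate (adjusted p from 0.0611 to 0.0735, limma). The log2 value of miR-4787-5p minus that of miR-4787-3p was 2.25, 1.97 and 1.03 on day 3 and -2.73, -2.92 and -2.09 on day 5, so the more abundant arm switched from 5p to 3p. For miR-212, known as an activity-induced miRNA in neurons, the difference was 0.77, 1.17 and 0.79 on day 3 and -0.54, -0.91 and -0.21 on day 5. There miR-212-5p fell by 0.78 (adjusted p = 0.00228, limma) and miR-212-3p rose by 0.69 (adjusted p = 0.0196, limma), at levels under 11 CPM.

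The difference between the arms was then tested itself, a test added after the values were seen. It changed in 11 of the 132 hairpins (8.33%; limma, adjusted p under 0.05), 6 toward the 5p and 5 toward the 3p arm. Without single libraries the count ranged from 5 (without day 5 replicate 2) to 19 (without day 3 replicate 3), being 6, 7 and 6 without day 3 replicate 1 and day 5 replicates 1 and 3. The 5 hairpins that changed in each of these fits were miR-4787, miR-212, miR-221, miR-9 and miR-200b. For miR-221, which acts on cell cycle inhibitors through its 3p strand, the difference went from -6.38, -6.32 and -6.30 to -7.39, -7.40 and -7.31, a change of -1.03 (standard error 0.09, adjusted p = 0.000275, limma). The major strand, miR-221-3p, stood at 0.17 (adjusted p = 0.34, limma). For miR-9 and miR-200b it changed by 0.60 and 0.65 (adjusted p = 0.00588 for both, limma), with the 3p strand lower on day 5. For miR-210 the 5p arm gained on the 3p arm by 0.84 (standard error 0.19, adjusted p = 0.0348, limma), a change that was called in 1 of the 6 fits leaving out a library. miR-199b is also among the 11, but its 3p sequence is identical to that of miR-199a-3p.

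**Figure D4:**
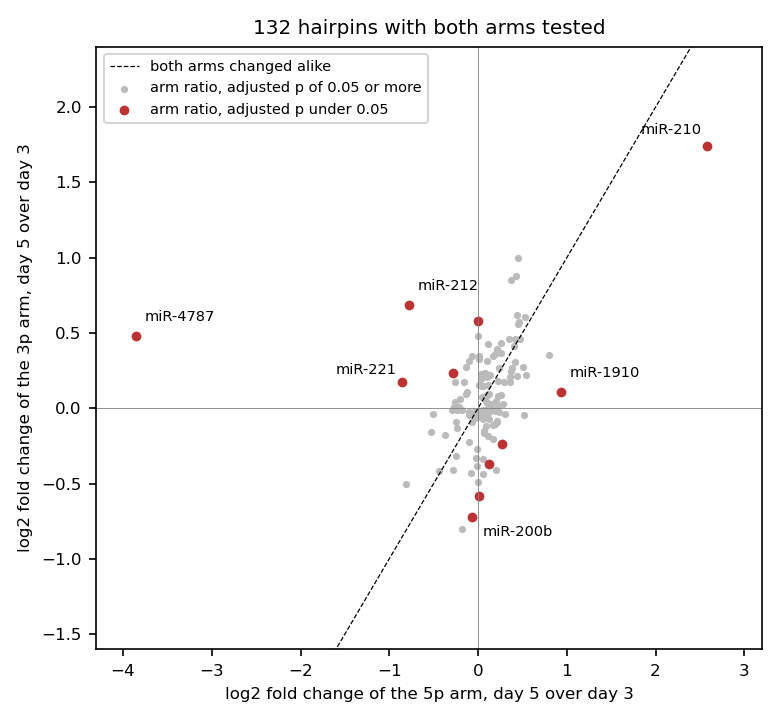
Log2 fold change, day 5 over day 3, of the 5p arm (horizontal axis) and the 3p arm (vertical axis) of 132 hairpins. Red points mark the 11 hairpins whose arm ratio changed at an adjusted p-value under 0.05, and the dashed line marks equal change of both arms; miR-4787 lies far to the left, at -3.85 and 0.48.

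Some miRNAs in the table cannot be told apart. In 13 sets, holding 28 tested miRNAs, the values were the same in all 6 libraries. In 3 sets the mature sequences are identical, and in 6 they are reverse complements of each other, cut from opposite strands of one locus. For the other 4 sets a sequence was missing. One of the 6 is miR-423-5p with miR-3184-3p, at chr17:30117095-30117117 on the plus and the minus strand:
miR-423-5p: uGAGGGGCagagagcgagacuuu
miR-3184-3p: aAAGUCUCgcucucugccccuca

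Both are listed with log2 values of 11.95, 11.94 and 12.11 on day 3 and of 12.38, 12.53 and 12.46 on day 5, and with the same rise of 0.46 (adjusted p = 0.0244, limma), so the 80 calls count this measurement 2 times. The other arm of the plus-strand hairpin, miR-423-3p, rose by 0.57 (standard error 0.10, adjusted p = 0.00648, limma) and was the most abundant miRNA after miR-92b-3p to be called, at 4728 CPM on day 3 and 6924 CPM on day 5.

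More abundant late-named miRNAs also fell. miR-7977, from chr3:176515103-176515120 on the plus strand, had log2 values of 12.17, 12.22 and 12.26 on day 3 and of 11.39, 11.44 and 11.49 on day 5, and fell by 0.77 (standard error 0.10, adjusted p = 0.00121, limma). miR-12135 fell by 0.43 (adjusted p = 0.0304, limma), from 2720 to 1998 CPM, a call that held in 1 of the 6 fits leaving out a library. These 2 were chosen after their values were seen, and neither fell beyond 2-fold.

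Host genes were looked up in the whole transcriptome libraries of the same days, since a miRNA inside a gene can share its primary transcript. Position within a gene does not show that it does. Of 39 host genes listed, 34 were tested, carried a hairpin on their own strand by annotation and had a tested miRNA. Of these, 21 changed on day 5, 12 higher and 9 lower, beside 56.9% of all genes tested (limma, adjusted p under 0.05). The 21 carried 54 tested miRNAs, of which 4 were called, and 18 of the 21 carried none that was called. The called share was 7.41% for these 54, 8.25% for the 97 tested miRNAs of all 34 hosts and 14.8% for all tested miRNAs. The median size of change was 0.42 for the 34 hosts and 0.14 for their miRNAs, on log2 scales that differ in their treatment of low values.

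MIR210HG rose together with both arms of miR-210, from normalized values of 73.8, 36.5 and 41.1 on day 3 to 462, 548 and 447 on day 5. Its change was 3.31 on the log2 scale (standard error 0.27, adjusted p = 0.000310, limma). MIR17HG, the host of the miR-17-92 cluster, fell by 1.06 (adjusted p = 0.00170, limma), from 1043, 1081 and 780 to 479, 417 and 485, while none of its 9 tested miRNAs was called. DLEU2, the host of miR-15a and miR-16-1, fell by 1.09 (adjusted p = 0.000597, limma), and miR-15a-5p stood at -0.03 (adjusted p = 0.907, limma). HUWE1, a ubiquitin ligase gene that carries miR-98 and let-7f-2, rose by 1.51 (adjusted p = 0.000238, limma), with miR-98-5p at 0.23. SREBF2, a regulator of cholesterol synthesis that carries miR-33a, rose by 1.47 (adjusted p = 0.000297, limma), with miR-33a-5p at 0.21. In 1 case the signs were opposite and both were called, as MAP2K4 fell by 0.60 (adjusted p = 0.00147, limma) and miR-744-5p within it rose by 0.54 (adjusted p = 0.0097, limma). MIR23AHG rose by 0.99 and miR-23a-5p by 0.52 (adjusted p = 0.00507 and 0.0227, limma). The other tested miRNAs of MIR23AHG were not called. Of these, the abundant miR-23a-3p and miR-27a-3p stood at -0.05 and -0.04, and miR-24-2-5p and miR-27a-5p at 0.22 and 0.30.

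The genes around the 10 largest rises and falls were added after the values were seen. On the strand of the miRNA, 9 such genes were tested, of which 7 were higher on day 5 and none lower, beside 29.3% of all genes tested called higher. Nothing is read from a count over 9 genes. Among hosts of the rises, PHC2 rose by 1.20, PKD1 by 1.11 and PFKFB3 by 0.93, and C16orf74, the host of miR-1910, stood at -0.01 (adjusted p = 0.968, limma). Among genes that hold the falls, DOCK3 rose by 0.48 (adjusted p = 0.00713, limma) while miR-4787-5p fell, and RIC8A, which holds miR-6743-5p, stood at 0.26 (adjusted p = 0.0620, limma).

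**Figure D5:**
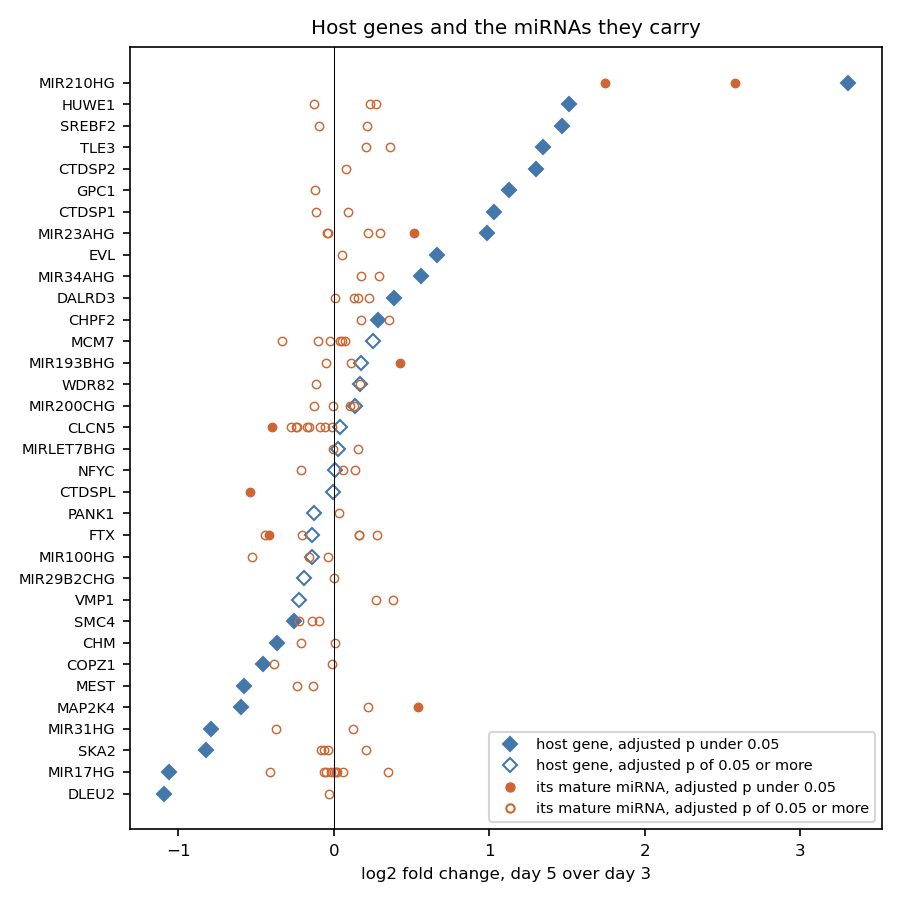
Log2 fold change, day 5 over day 3, of 34 host genes (blue diamonds) and of the tested mature miRNAs inside them (orange circles), ordered by the host. Filled marks have an adjusted p-value under 0.05; the hosts spread from -1.09 to 3.31, while their miRNAs outside MIR210HG stay between -0.54 and 0.54.

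Day 7 (400% confluency) was measured in 3 further libraries, and its comparison with day 3 uses the same 3 day 3 libraries, so the values are set side by side without a test between them. On day 7 the log2 fold change over day 3 was 3.04 for miR-210-5p and 2.95 for miR-210-3p, where day 5 gave 2.58 and 1.74. miR-3605-3p stood at 1.48 on day 7 and 0.71 on day 5, miR-411-5p at 1.11 and 0.70, and miR-935 at 1.67 and 0.65. miR-3155a stood at 0.05 on day 7 and 0.74 on day 5. Among the falls, miR-3195 stood at -5.04 and -5.40, miR-6743-5p at -4.73 and -4.06, and miR-4787-5p at -4.21 and -3.85. Some smaller falls of day 5 had other values on day 7, chosen here after they were seen. miR-212-5p stood at -0.02 on day 7 and -0.78 on day 5, miR-502-3p at 0.01 and -0.40, and miR-221-5p, with the opposite sign, at 0.29 and -0.85.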

How the data were processed

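Small-RNAseq libraries of wild-type HCT116 cells were made by the authors from whole cell RNA with the TruSeq Small RNA kit. Reads were trimmed with Cutadapt, to lengths that the methods give as above the usual length of a mature miRNA, and mapped to mature and hairpin miRNA sequences of GRCh37; TMM and edgeR are named. The deposited values are log2, from -2.64 to 18.28, in the 6 libraries, for 2167 mature miRNAs. The transformation is not given in the sources used here, so fold changes are on that scale, and since the values hold no counts no counting error is given. Authors' fold changes and p-values in the tables were not used. The deposited whole transcriptome signal of 38055 genes was normalized by the authors; 100% of its values were whole multiples of 1 read (tolerance 0.01), 27470978 to 56689369 reads per library.

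limma 3.58.1 (R 4.3.3) was fitted to the 539 miRNAs, and to log2(value + 1) of 20129 genes with at least 10 in 3 of 6 libraries, of which 11450 were called (edgeR 4.0.16 on recovered reads called 12280, DESeq2 1.42.0 called 11530). Benjamini-Hochberg adjustment ran over all features of a table, with 0.05 as threshold. CPM are back-transformed values per 1000000 of a library's miRNA sum. Python 3.11.15, pandas 2.3.3, numpy 2.4.6 and matplotlib 3.10.9 were used, and the fitting step was run on simulated data first. A test for counts had been planned for the case that counts were given. Named miRNAs were the 10 largest rises and falls among called miRNAs of at least 10 CPM without overlap, the 10 most abundant, called members of the lists, the other arms and miRNAs the paper names; others were chosen after their values were seen. The members and lists were chosen with earlier results of these data known. RefSeq gave sequences for 464 of the 539 (86.1%), and gene annotation was GENCODE 44 on GRCh38.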

Additional observations from a re-analysis of the deposited data

How the results depend on the processing

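No call of the 80 miRNAs reversed its direction under any alternative. Nothing is read from this, since many alternatives could not reverse one. The days overlapped for none of the 80, so leaving out 1 library keeps the sign. Filters, the replicate block and the variance trend leave a fold change as it is. Of the 80, 25 were called under each alternative listed here that tested them, 9 higher and 16 lower. The 2-fold minimum and the median centring with the block are left out of that count. The counts of calls moved, and the cause was not tested. With library totals as the scale, 135 miRNAs were called, 72 higher and 63 lower, with 42 list members. With median centring the counts were 169, 121 and 48, with 52 list members, and the median fold change went from 0.07 to 0.14. Without the filter on low values they were 50, 26 and 24, with 8 list members, over 2167 miRNAs, and with a stricter filter they were 52, 31 and 21. The GC correction gave 63 lower and 31 list members. All 9 libraries in one fit gave 26 list members and a variance trend 25. A pseudocount of 1 gave 81 calls. A 2-fold minimum left 14 calls, 2 higher and 12 lower, with 2 list members. Leaving out 1 library in turn gave 37 to 122 calls, 16 to 55 higher, 21 to 67 lower, 7 to 34 list members and 5 to 19 arm ratios. Without the filter, the adjusted p (limma) was 0.0704 for miR-6089 and for miR-411-5p, 0.0839 for miR-200b-3p and 0.102 for miR-1275. The calls of host genes stayed within 1.5 times 21 under each alternative, edgeR and DESeq2 included.

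Same-numbered libraries of both days deviated together with correlations of 0.07, 0.12 and 0.11, so the numbers were not taken as pairs, although each library correlated best with its own number, a hint from the data. With the replicate block 71 miRNAs were called, 39 higher and 32 lower, with 12 list members, 8 arm ratios and 19 host genes. The GC correction with the block gave 52 calls, 15 of them higher. Median centring with the block, chosen after seeing the data, gave 76 higher and 25 list members.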
